A study of Mus musculus with 10 samples.

Results

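Cyclic nucleotide phosphodiesterases break down cAMP and cGMP, and 10 of their genes were examined in testis with and without the cAMP-responsive transcription factor CREM. The genes were Pde1a, Pde1b, Pde1c, Pde3a, Pde3b, Pde4a, Pde4b, Pde4d, Pde8a and Pde11a. They were chosen by name, with earlier results of these data known. Each was read from the array feature with that single gene symbol and the highest mean, which gave 10 of 19661 measured genes. All 10 had a feature, and no filter on low values was applied. Whole testis RNA came from 5 Crem knock-out (KO, Crem-/-) and 5 wild-type (WT) mice (129Pas x C57Bl/J, a mixed strain), 1 mouse per Affymetrix Mouse Gene ST array. All mice were untreated, 8 weeks old and killed when the lights came on. The KO allele carries an insertion in Crem in all cells of the animal, and in these mice germ cells are known to stop as round spermatids, so KO testis also differs in its cell types.

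Adenylyl and guanylyl cyclases make cAMP and cGMP, and phosphodiesterases end both signals. In testis, cAMP carries the message of FSH in Sertoli cells and of LH in Leydig cells, and in germ cells it starts sperm motility. The subfamilies differ in what controls them. PDE1 enzymes are switched on by calcium and calmodulin, PDE3 enzymes are inhibited by cGMP, PDE4 and PDE8 enzymes act on cAMP alone, and PDE11A acts on both nucleotides. CREM itself binds the cAMP response element (CRE), the palindrome TGACGTCA, or its shorter form TGACG.

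The values are log2 expression levels after RMA normalisation, and a change is KO minus WT on that scale. The call of a change rested on limma, with p adjusted over all features after Benjamini and Hochberg and a threshold of 0.05. Over all genes, 13.2% were called lower in KO and 31.1% higher, and in 32.7% the 5 KO and 5 WT values did not overlap. The median change of all genes was 0.07. The share of higher genes among the changed ones was 70.1%. When each array was centred on housekeeping genes without B2m, this median was 0.01 and this share 60.4%. With B2m among them, the median moved to -0.07 and the share to 37.5%. B2m was itself called higher in KO (0.81, limma adjusted p = 0.00253). Crem, the disrupted gene, stood at 9.24 ± 0.15 in KO and 10.95 ± 0.06 in WT (SD, n = 5 each), and its change was -1.71 ± 0.07 (SE, adjusted p = 3e-10).

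Markers of several testis cell types differed with genotype, and these values stand beside every result. Their counts are to be read beside the 13.2% of all genes called lower and 31.1% called higher. All 10 elongating spermatid markers were lower in KO, with a median change of -5.03 (Prm1 -5.52, Akap4 -5.49, Tnp2 -5.46). Their mean level was 8.48, 9.46, 9.48, 7.80 and 7.49 in KO replicates 1 to 5, against 12.69 to 12.97 in WT. Of 6 Leydig cell markers 5 were higher in KO (Hsd17b3 1.08, Cyp11a1 0.84, Cyp17a1 0.61), and their mean level was 10.23 to 10.91 in KO and 9.86 to 10.04 in WT. Of 7 Sertoli cell markers 4 were higher (Fshr 0.35, Clu 0.32, Cldn11 0.31), at 8.93 to 9.16 in KO and 8.80 to 8.91 in WT. All 5 macrophage markers were higher (Adgre1 1.52, Lyz2 0.93, Csf1r 0.61), at 7.62 to 8.24 in KO and 7.01 to 7.16 in WT. Of 8 spermatocyte markers 6 were higher (Spo11 0.38, Sycp3 0.36, Sycp1 0.26), at 9.99 to 10.08 in KO and 9.74 to 9.85 in WT. In whole testis, fewer cells of a type and less RNA per cell cannot be told apart. The part of these shifts in the changes of the phosphodiesterases was not tested.

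Among the phosphodiesterases, Pde1a was far lower in KO testis and Pde11a slightly lower, while Pde1c, Pde4b, Pde8a and Pde3b were higher by less than 1 log2 unit. That is 2 of 10 genes called lower beside 13.2% of all genes, and 4 of 10 called higher beside 31.1% of all genes. Both shares are close to the background. For 5 of the 10 genes the KO and WT values did not overlap, beside 32.7% of all genes. The median change of the 10 was -0.03. Pde1b, Pde3a, Pde4a and Pde4d did not pass the test. Without KO replicates 2 and 3, the KO arrays with the most elongating spermatid RNA, the counts were again 2 lower and 4 higher.

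**Figure D1:**
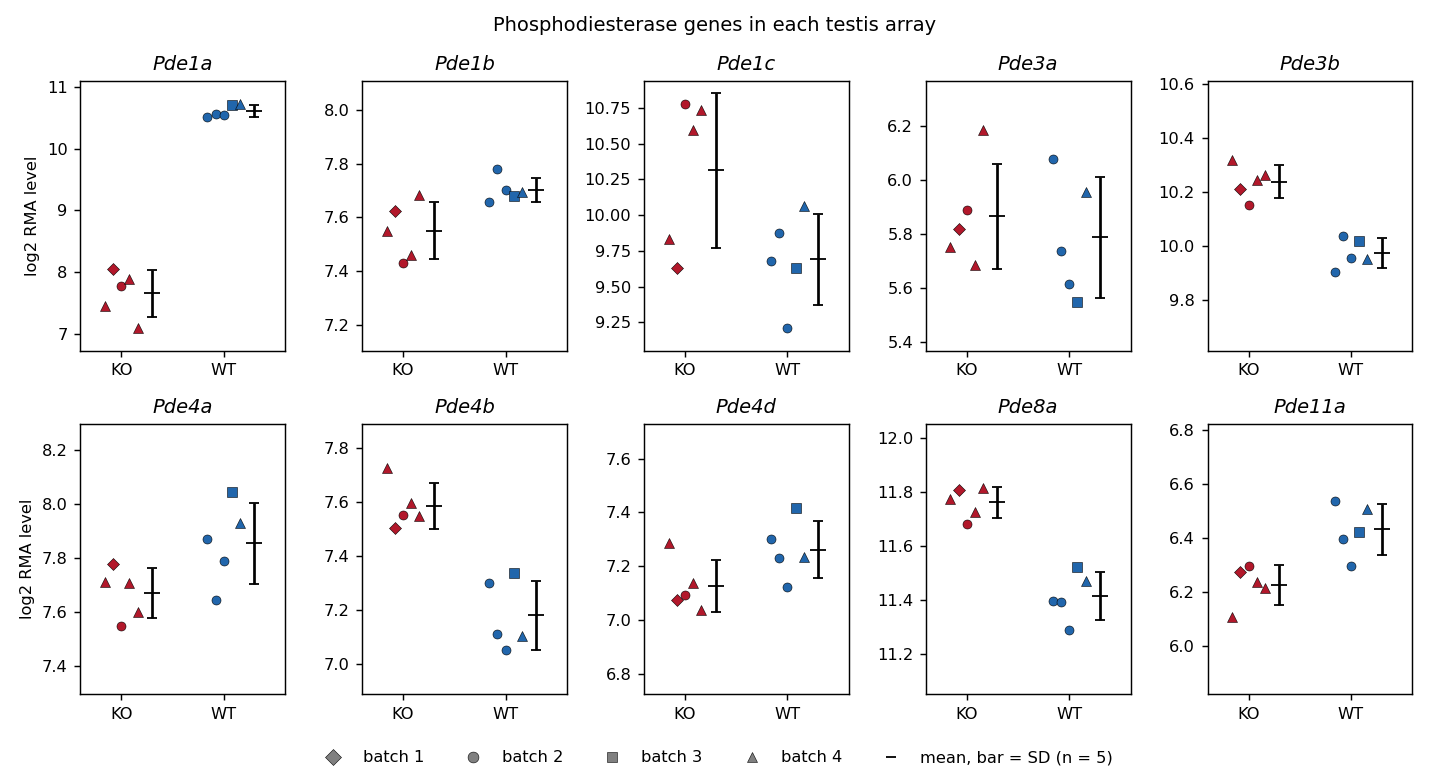
Log2 RMA level (y axis, each panel with its own range) of the 10 phosphodiesterase genes in each of the 5 KO (red, left) and 5 WT (blue, right) testis arrays, with point shape for the batch and a bar for mean and SD. Pde1a lies at 7.09 to 8.05 in KO and 10.52 to 10.73 in WT, and the 3 KO points of Pde1c above 10.5 stand over 2 that lie among the WT points.

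The calcium-activated PDE1 subfamily showed the widest split. Pde1a stood at 7.46, 8.05, 7.77, 7.89 and 7.09 in KO replicates 1 to 5, against 10.52, 10.56, 10.55, 10.70 and 10.73 in WT replicates 1 to 5. Every KO array lay more than 2 log2 units under every WT array. The change of -2.96 ± 0.15 (SE, adjusted p = 1.31e-09) is a 7.79-fold lower level. Only 4.36% of all genes were called lower with a change of -1 or below. KO replicate 5, the lowest for Pde1a, also had the lowest mean of the elongating spermatid markers, whereas KO replicate 4 was next lowest for those markers and second highest for Pde1a. Leaving out 1 array at a time gave changes of -3.06 to -2.82, and within batches 2 and 4 the changes were -2.77 and -3.25.

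The 3 genes whose levels followed Pde1a most closely over the 10 arrays were Stat4 (Pearson r = 0.9982, change -1.59), Spata31d1a (r = 0.9966, change -2.14) and Slc44a5 (r = 0.9966, change -2.07). Such values describe arrays that fall into KO and WT clusters and share their normalisation, and they carry no test.

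Pde1c, of the same subfamily, moved the other way. Its levels were 9.83, 9.63, 10.78, 10.59 and 10.74 in KO, against 9.68, 9.87, 9.21, 9.63 and 10.06 in WT. KO replicates 3, 4 and 5 were above every WT array, and KO replicates 1 and 2 were not. The mean was 10.31 ± 0.54 in KO and 9.69 ± 0.32 in WT (SD, n = 5 each), and the change was 0.62 ± 0.22 (SE, adjusted p = 0.0406). This call was the weakest of the set. It was lost without KO replicate 3, 4 or 5 and without WT replicate 1, 3 or 4 (changes of 0.50 to 0.62, adjusted p 0.0689 to 0.103) and with batch as a fixed block (0.76, adjusted p = 0.0532). It was also lost with arrays centred on housekeeping genes without B2m (0.57, adjusted p = 0.055) or with it (0.49, adjusted p = 0.0764), and with trend and robust moderation (adjusted p = 0.0953). Within batch 2 the change was 1.19 (adjusted p = 0.0185) and within batch 4 it was 0.33 (adjusted p = 0.547). Batch 2 had a single KO array, KO replicate 3, the highest KO array for Pde1c, and batch 4 a single WT array, so these and all other within-batch p values assume that a lone array varies like the others.

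The spread of Pde1c between arrays of a genotype was itself unusual. Its within-genotype SD of 0.44 was larger than in 99.1% of genes, for which the median was 0.12. Pde1a was also spread widely, with an SD of 0.28. Pde3b and Pde8a varied least among the 10, with SDs of 0.06 and 0.07. The genes most like Pde1c over the 10 arrays were Uqcr10 (Pearson r = 0.9737, change 0.17), Inha (r = 0.9584, change 0.29) and Ube2g1 (r = 0.9574, change 0.08). Inha encodes the alpha subunit of inhibin and is 1 of the Sertoli cell markers used here. KO replicate 2, lowest among KO arrays for Pde1c, had the lowest KO mean of both the Sertoli cell markers (8.93) and the Leydig cell markers (10.23). KO replicate 3 was highest and KO replicate 5 second highest both for Pde1c and for the Leydig cell markers (10.91 and 10.64). Between KO replicates 1 and 4 the order was opposite, at 10.62 and 10.42 for the Leydig cell markers. For the Sertoli cell markers KO replicate 4 was highest (9.16) and KO replicate 5 second lowest (9.04). There KO replicate 1 stood at 9.09 and KO replicate 3 at 9.12. Whether Pde1c followed either list was not tested.

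Pde1b, the third PDE1 gene, is best known from brain. It stood at 7.55, 7.63, 7.43, 7.46 and 7.68 in KO, against 7.66, 7.78, 7.70, 7.68 and 7.69 in WT, so that 4 KO arrays were below all WT arrays and KO replicate 5 was among them. Its change was -0.15 ± 0.06 (SE, adjusted p = 0.0677, 95% interval -0.29 to -0.02). It passed the test without KO replicate 2 (-0.17, adjusted p = 0.0497) or 5 (-0.19, adjusted p = 0.0367) and with arrays centred on housekeeping genes, whether B2m was left out (-0.21) or kept (-0.29).

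Of the cGMP-inhibited PDE3 genes, Pde3b was higher in KO. Pde3b acts downstream of insulin in fat cells. Its levels were 10.32, 10.21, 10.15, 10.24 and 10.26 in KO, against 9.90, 10.04, 9.96, 10.02 and 9.95 in WT. The groups did not overlap, and the change of 0.26 ± 0.06 (SE, adjusted p = 0.00171) is a 1.20-fold higher level. The call ended when arrays were centred on housekeeping genes with B2m (0.13, adjusted p = 0.142), and within batches 2 and 4 the changes were 0.19 and 0.32 (adjusted p 0.295 and 0.103). Pde3a, which keeps oocytes arrested in meiosis, stood at 5.75, 5.82, 5.89, 5.68 and 6.18 in KO, against 6.08, 5.74, 5.61, 5.55 and 5.96 in WT. The arrays of both genotypes overlapped over most of this range. Its feature was dim, with means at percentile 23.63 of all array values in KO and 22.34 in WT. The change was 0.08 ± 0.11 (SE, adjusted p = 0.633, 95% interval -0.17 to 0.32).

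In the cAMP-specific PDE4 subfamily, the targets of rolipram, Pde4b was called higher and Pde4a and Pde4d were not called. Pde4b is known from mouse for its role in the response of monocytes and macrophages to endotoxin. It stood at 7.73, 7.51, 7.55, 7.60 and 7.55 in KO, against 7.30, 7.11, 7.05, 7.34 and 7.10 in WT. All KO arrays were above all WT arrays, and the change was 0.41 ± 0.07 (SE, adjusted p = 0.000481), a 1.32-fold higher level. Within batch 2 it was 0.40 (adjusted p = 0.0849) and within batch 4 it was 0.52 (adjusted p = 0.0323). The mean of the macrophage markers was also higher in every KO array than in every WT array (7.62 to 8.24 against 7.01 to 7.16). Among KO arrays, replicate 2 was lowest and replicate 1 highest for Pde4b. For these markers, replicates 2 and 4 were lowest (both 7.62) and replicate 3 highest (8.24). Replicate 4 was second highest for Pde4b (7.60). Whether Pde4b followed these markers was not tested.

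Pde4a stood at 7.71, 7.78, 7.55, 7.71 and 7.60 in KO, against 7.87, 7.64, 7.79, 8.04 and 7.93 in WT. Only KO replicates 3 and 5 were below every WT array. The change was -0.19 ± 0.08 (SE, adjusted p = 0.0733, 95% interval -0.35 to -0.02), and it passed the test without WT replicate 2 (-0.24, adjusted p = 0.0215), with batch as a fixed block (-0.24, adjusted p = 0.0431) and with both housekeeping centrings. Pde4d, induced by FSH in rat Sertoli cells, stood at 7.29, 7.08, 7.09, 7.14 and 7.04 in KO, against 7.30, 7.23, 7.13, 7.42 and 7.24 in WT. Its KO and WT arrays overlapped. The change was -0.14 ± 0.07 (SE, adjusted p = 0.141, 95% interval -0.28 to 0.01), and it was called lower with both housekeeping centrings. Pde4d had 3 features, and the other 2 had changes of 0.03 and -0.05 (adjusted p 0.666 and 0.726). These 2 were dim, at means of 4.01 and 5.08 in KO and 3.98 and 5.13 in WT, so they say little about Pde4d.

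Pde8a encodes a high-affinity, cAMP-specific enzyme that restrains steroid production in mouse Leydig cells. Its levels were 11.78, 11.81, 11.68, 11.73 and 11.82 in KO, against 11.40, 11.39, 11.29, 11.52 and 11.47 in WT. The groups did not overlap, and the change was 0.35 ± 0.06 (SE, adjusted p = 0.000399), a 1.27-fold higher level. Within batches 2 and 4 it was 0.33 and 0.30 (adjusted p 0.0898 and 0.125). The mean of the Leydig cell markers was also higher in every KO array than in every WT array (10.23 to 10.91 against 9.86 to 10.04). Among KO arrays, replicate 2 was lowest and replicate 3 highest for these markers. For Pde8a, replicate 3 was lowest (11.68) and replicate 5 highest (11.82). Whether Pde8a followed these markers was not tested.

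Pde11a encodes an enzyme for both nucleotides. It stood at 6.11, 6.27, 6.29, 6.24 and 6.21 in KO, against 6.53, 6.39, 6.30, 6.42 and 6.51 in WT. The groups did not overlap, but KO replicate 3 and WT replicate 3 were within 0.01 of each other after rounding. The change was -0.21 ± 0.06 (SE, adjusted p = 0.0183), a 1.15-fold lower level. This is a dim feature, with means at percentile 30.22 of all array values in KO and 34.62 in WT. The call ended without WT replicate 1 (-0.18, adjusted p = 0.0508) and with batch as a fixed block (-0.22, adjusted p = 0.0829). Within batches 2 and 4 the changes were -0.11 and -0.32 (adjusted p 0.59 and 0.116).

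**Figure D2:**
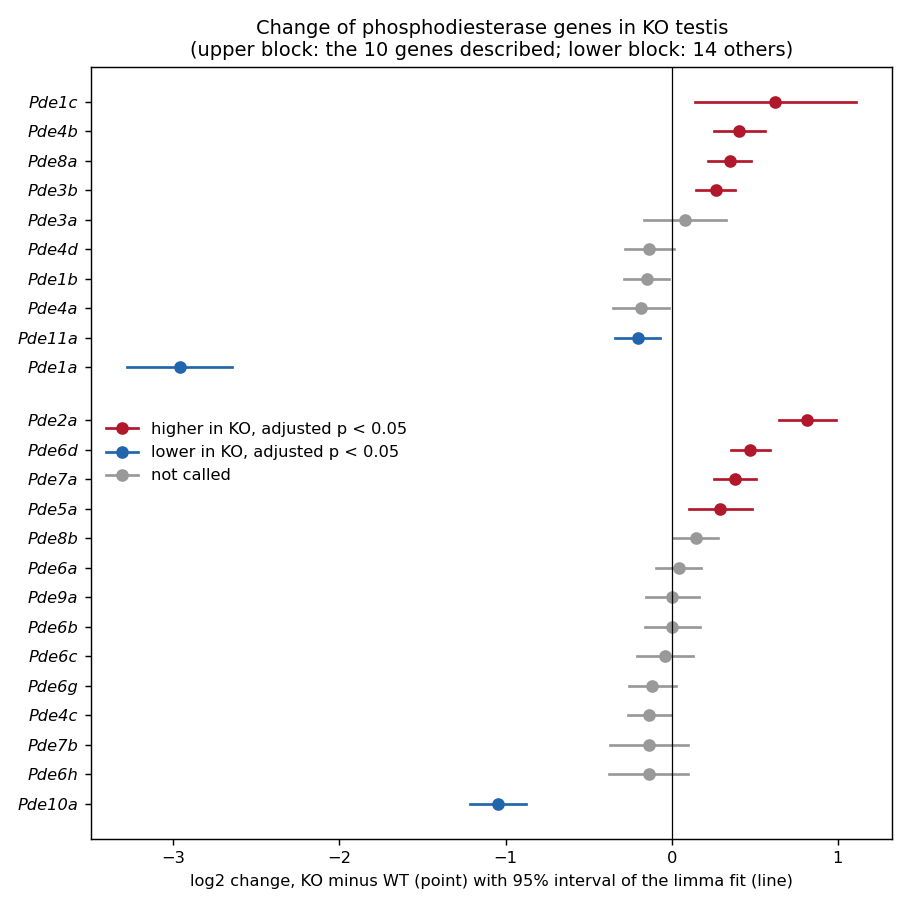
Log2 change, KO minus WT, with its 95% interval (x axis) for the 10 phosphodiesterase genes (upper block) and 14 others (lower block), coloured by the call at an adjusted p under 0.05. Pde1a at -2.96 and Pde10a at -1.05 lie far left of the rest, and all other changes fall between -0.21 and 0.82.

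Whether genes of a subfamily moved apart was tested on the difference between their levels within each array, a measure that array scaling does not move. Only the KO against WT contrast of such a difference can be read, since levels of different probes are not comparable. Of 7 pairs, 4 differed between KO and WT with an exact permutation p of 0.0079, the smallest the design allows. Their adjusted p was 0.0139 over the 7. All 4 hold Pde1a or Pde4b, both already called on their own, so they are not separate results. The share of other gene pairs that would pass was not computed, and in 32.7% of single genes KO and WT values did not overlap. Pde1a changed by -2.81 ± 0.21 relative to Pde1b and by -3.59 ± 0.37 relative to Pde1c (SE, n = 5 KO and 5 WT, exact permutation test, two-sided). Pde4b changed by 0.54 ± 0.03 relative to Pde4d and Pde4a by -0.59 ± 0.08 relative to Pde4b. The Pde4b to Pde4d contrast was the tightest of the 7, at 0.43 to 0.51 in KO arrays and -0.13 to -0.00 in WT arrays.

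For the other 3 pairs no difference in response passed the test. Pde1b against Pde1c gave -0.78 ± 0.30 (SE, exact permutation adjusted p = 0.0889), and -0.97 without KO replicate 2 (exact permutation adjusted p = 0.0222). Pde3a against Pde3b gave -0.19 ± 0.15 (exact permutation adjusted p = 0.269). Pde4a against Pde4d gave -0.05 ± 0.07 (exact permutation adjusted p = 0.484). With 5 mice per genotype, these errors leave room for unequal responses in each of the 3 pairs.

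**Figure D3:**
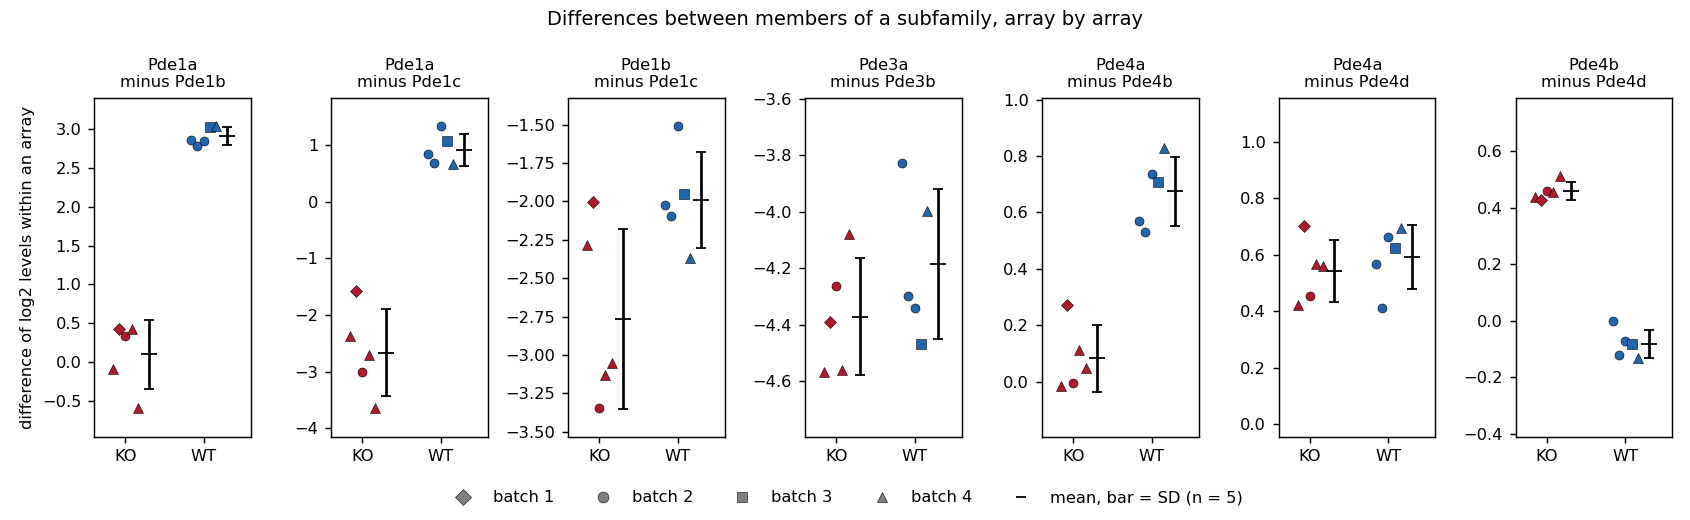
Difference of log2 levels of 2 genes of a subfamily within an array (y axis, each panel with its own range) in 5 KO (red, left) and 5 WT (blue, right) arrays, point shape for the batch, bar for mean and SD. KO and WT points are apart in 4 of the 7 panels, all with Pde1a or Pde4b, and the share over other gene pairs was not computed. Points are most narrowly spread in Pde4b minus Pde4d at 0.43 to 0.51 in KO and -0.13 to -0.00 in WT.

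Promoters of these genes were searched for the CRE, since CREM acts through it. Windows of 250 bases before to 50 after a transcript start were taken from RefSeq (mouse build GRCm38.p6). Of the 10 genes, 8 had 20 such windows. For Pde1a, Pde1c and Pde4b the RefSeq gene begins upstream of all its windows, so the outermost start was not searched. Pde3a and Pde3b had none in the table. The full CRE TGACGTCA was in 0 of the 20, and in 1.79% of all 32851 promoters. The short CRE TGACG, on either strand, was in 4 of the 20 (20%), and in 20.8% of all promoters. A CRE with 1 mismatch was in 6 of the 20 (30%), and in 11% of all promoters. This last motif was added after the data were seen, and in 2 of its 6 matches it overlaps a short CRE. The search draws on letters alone, and windows of 1 gene are not independent. Shown are all 4 short matches, and both matches with 1 mismatch at Pde1a, the gene with the largest change. The matches with 1 mismatch at Pde1b, Pde4a and Pde8a are not shown. Capitals mark the match, written CGTCA where it lies on the opposite strand.
Pde1a promoter 3, minus strand, chr2:80039046-80039086: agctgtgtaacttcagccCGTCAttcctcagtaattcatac
Pde4a promoter 2, plus strand, chr9:21184033-21184073: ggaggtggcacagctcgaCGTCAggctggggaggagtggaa
Pde4b promoter 1, plus strand, chr4:102421503-102421543: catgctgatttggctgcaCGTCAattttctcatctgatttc
Pde8a promoter 1, plus strand, chr7:81213163-81213203: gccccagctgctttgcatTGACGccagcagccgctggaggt
Pde1a promoter 2, minus strand, 1 mismatch, chr2:80129061-80129100: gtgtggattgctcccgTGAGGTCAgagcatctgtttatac
Pde1a promoter 4, minus strand, 1 mismatch, chr2:79908432-79908471: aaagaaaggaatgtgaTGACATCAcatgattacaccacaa

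Pde1a had 4 windows, 1 with the short CRE (20.8% of all promoters) and 2 with a CRE with 1 mismatch (11% of all promoters). Its feature does not tell which start was used. A CRE with 1 mismatch was also in 2 of 3 windows of Pde4a and 1 of 3 of Pde1b, neither of them called, and in the 1 window of Pde8a. The short CRE lies 166 bases before the start at Pde1a, 50 at Pde4a, 34 at Pde4b and 84 at Pde8a. Among these 4 genes are 1 called lower, 2 called higher and 1 not called, beside 13.2% of all genes called lower and 31.1% called higher. Pde1c and Pde11a, both called changed, and Pde4d had no match to any of the 3 motifs in these windows.

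Of 14 other phosphodiesterases, 1 was called lower in KO and 4 higher, with a median change of 0.00. Both counts stand beside 13.2% of all genes called lower and 31.1% called higher. Pde10a, an enzyme for both nucleotides best known from the striatum, stood at 8.19, 8.20, 7.87, 8.19 and 7.90 in KO, against 9.09, 9.11, 9.11, 9.09 and 9.17 in WT. All KO arrays were lower, and the change was -1.05 ± 0.08 (SE, adjusted p = 1.07e-07). Pde2a, the cGMP-stimulated enzyme, stood at 8.70, 8.56, 8.50, 8.70 and 8.58 in KO, against 7.65, 7.83, 7.66, 8.04 and 7.79 in WT. It was higher in every KO array, with a change of 0.82 ± 0.08 (SE, adjusted p = 2.03e-06). Also called higher were Pde6d (0.47 ± 0.05), which carries prenylated proteins, the cAMP-specific Pde7a (0.38 ± 0.06) and the cGMP-specific Pde5a (0.29 ± 0.09), the target of sildenafil. The other 9, among them the photoreceptor genes Pde6a, Pde6b, Pde6c, Pde6g and Pde6h and further Pde4c, Pde7b, Pde8b and Pde9a, had changes between -0.14 and 0.14 and were not called.

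Sorted by substrate, none of the 8 cAMP-specific genes was called lower and 3 were called higher (Pde4b, Pde7a and Pde8a), beside 13.2% of all genes lower and 31.1% higher. Of the 8 genes for enzymes that take both nucleotides, 3 were lower (Pde1a, Pde10a and Pde11a) and 3 higher (Pde1c, Pde2a and Pde3b). Of the 5 cGMP-specific genes only Pde5a was called, and it was higher. This sorting was made after the data were seen, and the difference between substrates was not tested. With arrays centred on housekeeping genes, with or without B2m, Pde1b, Pde4a, Pde4c and Pde4d were also called lower and Pde1c was no longer called higher, so the count of 0 lower among cAMP-specific genes does not hold on those scales. With B2m, Pde6g was called lower as well, and Pde3b and Pde5a were no longer called higher.

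**Figure D4:**
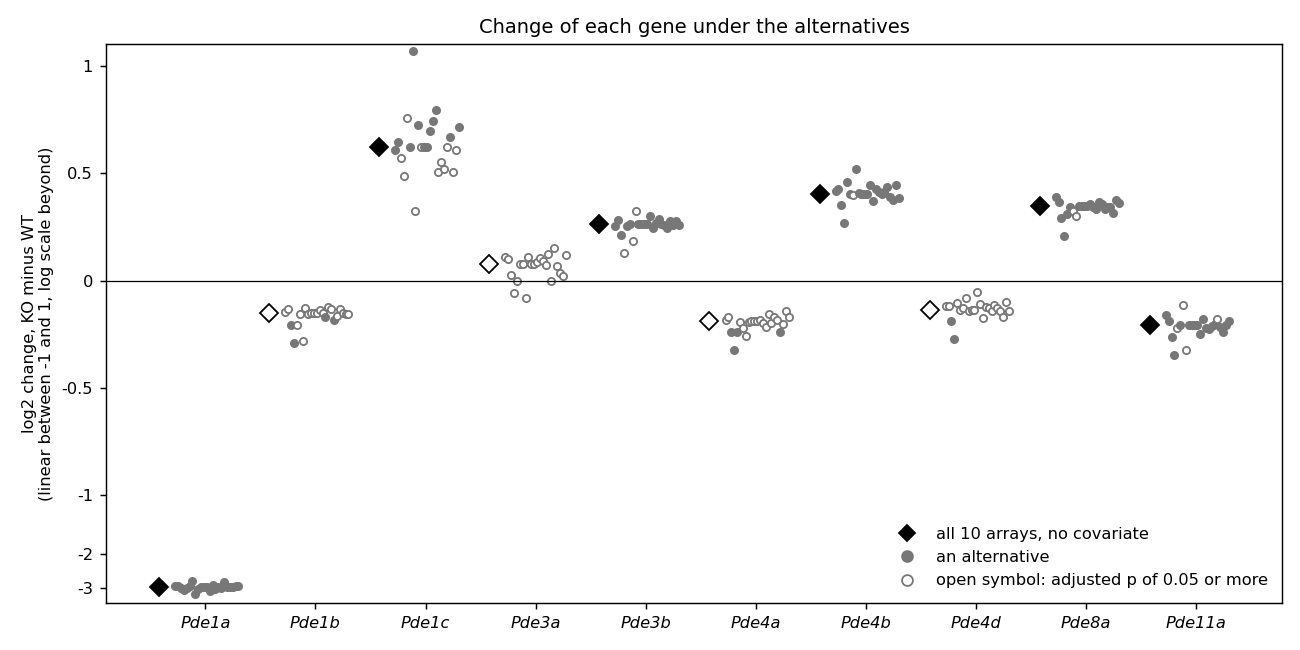
Log2 change, KO minus WT, of the 10 genes (y axis, linear between -1 and 1 and logarithmic beyond) in the fit of all 10 arrays (diamond) and under up to 23 alternatives (circles), open where the adjusted p was 0.05 or more. Pde1a stays between -3.25 and -2.77 and is filled throughout, while Pde1c has both open and filled points.

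Among the enzymes that make cAMP, 3 of 10 adenylyl cyclases were lower and 1 higher, with a median change of 0.01. The counts of these and of the guanylyl cyclases stand beside 13.2% of all genes called lower and 31.1% called higher. Adcy10, the bicarbonate-regulated soluble cyclase of sperm, averaged 10.03 ± 0.15 in KO and 11.63 ± 0.05 in WT (SD, n = 5 each), a change of -1.60 ± 0.07 (SE, adjusted p = 5e-10). Adcy2 (-0.58 ± 0.08) was also lower and Adcy9 (0.24 ± 0.06) was higher. Of 9 guanylyl cyclases 1 was lower and 4 were higher, with a median change of 0.34. Those with the largest changes were Gucy2f (1.55 ± 0.07), a cyclase of the retina, Gucy2c (0.70 ± 0.11), a receptor of the gut, and Gucy2g (0.44 ± 0.11). Their levels were low. Gucy2f averaged 6.74 in KO and 5.20 in WT, and Gucy2c 6.73 and 6.03, all under the array medians of 7.11 to 7.15. Gucy2g averaged 7.28 in KO and 6.84 in WT.

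Of 12 measured effectors of cyclic nucleotides, 4 were lower and 4 higher, with a median change of 0.13. For these and for the partners below, the shares over all genes were 13.2% called lower and 31.1% called higher. Prkar2a, the regulatory subunit that anchors protein kinase A in the sperm tail, averaged 6.71 ± 0.25 in KO and 10.92 ± 0.11 in WT (SD, n = 5 each). Its change of -4.21 ± 0.10 (SE, adjusted p = 3.26e-12) was larger than that of any phosphodiesterase measured. The regulatory subunits Prkar2b (0.48 ± 0.08) and Prkar1a (0.42 ± 0.07) were higher. Of 8 measured partners of phosphodiesterases, 2 were lower and 3 higher, with a median change of 0.14. Arrb1, a beta-arrestin that recruits PDE4 to activated receptors, was lower (-1.04 ± 0.10, adjusted p = 1.51e-06). Akap9 (0.52 ± 0.08) and Pde4dip (0.35 ± 0.08), which anchor PDE4D at the centrosome and Golgi, were higher. Prkaca, Rapgef4 and Rack1 were not analysed here.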

How the data were processed

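The authors normalised the arrays with RMA (XPS package of Bioconductor, 1 value per core transcript, antigenomic probes as the background), and the deposited values are log2 levels between 2.74 and 14.57. Package version and genome build are not given in the sources used here. Of 35557 rows 9868 were empty, and the other 25689 features were all used. GEO's platform annotation gave 1 symbol for 20777 features, several for 232 and none for 4680, and 20696 of the features with 1 symbol matched a gene in RefSeq (GRCm38.p6), which supplied the current symbol and the promoters. A gene was read from its feature with the highest mean, and 564 genes had more than 1 feature. Probes of a transcript are summarised together, so isoforms cannot be told apart.

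KO and WT were compared with limma 3.58.1 in R 4.3.3 (lmFit and eBayes, two-sided, no covariate, adjusted over all 25689 features), after a check on simulated data. The median standard error of a change was 0.08, and the number of arrays limits the precision. The labels give 4 batches. KO replicate 2 made up batch 1 and WT replicate 4 made up batch 3, while batch 2 contained KO replicate 3 with WT replicates 1 to 3, and batch 4 the remaining KO replicates with WT replicate 5. Replicates were numbered in order of deposition. Pairs were tested by exact permutation of the arrays over all 252 splits. Alternatives covered scaling, batch, array weights, moderation, dim features, the choice of feature and left-out arrays.

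The text names all 10 genes, all other phosphodiesterases of the list, Crem, up to 3 genes with the largest change in each other list, and the 3 genes most correlated with the largest fall and rise. The genes and lists were chosen with earlier results of these data known. Protein sequences were not analysed here.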

Additional observations from a re-analysis of the deposited data

Results flagged for a closer look

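In 5 of 150 groups of 5 arrays, over 68 named genes and 7 pairs, 1 array lay far from the other 4 by Dixon's test. Chance flags about 1 in 20 groups, so this number is within what chance gives. Among the phosphodiesterases, Pde6a was 6.20 in WT replicate 3, under the other WT arrays, and Pde7a was 9.46 in WT replicate 2, above the other WT arrays. None of the 10 genes described first had such an array. Arrb1 was 7.36 in KO replicate 1, above the other KO arrays. Clu was 12.89 in KO replicate 3, above the other KO arrays, and Adgre1 was 6.59 in WT replicate 1, under the other WT arrays.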

How the results depend on the processing

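Over 23 alternatives, the 10 genes gave 229 values, of which 194 kept direction and call, 21 lost the call, 10 gained it and 4 changed sign without being called. The 14 other phosphodiesterases gave 320 values, of which 290 kept both, 4 lost the call, 4 gained it and 22 changed sign. Pde1a kept its call throughout. With arrays centred on housekeeping genes without B2m, 3029 genes were lower and 4613 higher, and 5 of the 10 genes were lower and 3 higher. With B2m among them, 4640 genes were lower and 2787 higher, 5 of the 10 genes were lower and 2 higher, and their median was -0.17. Within batch 2, 1552 genes were lower and 2208 higher, and within batch 4 the counts were 1584 and 1902, with 1 of the 10 genes lower and 1 higher in each. Fewer arrays entered these 2 fits, and a lone array is assumed to vary like the others. Without the lowest 25% of features, which leaves out Pde3a, the median was -0.14. Leaving out 1 array at a time gave 2388 to 2732 genes lower and 5392 to 6559 higher, 1 to 3 of the 10 genes lower (1 without WT replicate 1) and 3 to 4 higher, a median of -0.06 to 0.01, and a Pde1b to Pde1c contrast of -0.97 to -0.63.

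Changes of sign concerned uncalled genes with values near 0. With the 2 centrings (without and with B2m), Pde6a was -0.013 and -0.097, Pde6b -0.052 and -0.135, and Pde9a -0.049 and -0.133, and with B2m Pde3a was -0.059. With batch as a fixed block, Pde3a was -0.002 and Pde6b -0.072. Pde6b was -0.041 within batch 2 and -0.014 with array weights. Within batch 4, Pde3a was -0.082, Pde6a -0.009, Pde6b -0.103, Pde7b 0.104 and Pde9a -0.024. Without KO replicates 2 and 3, Pde6b was -0.053, Pde6c 0.014 and Pde9a -0.039. With 1 array left out, Pde3a ranged over -0.001 to 0.151, Pde6b over -0.040 to 0.057, Pde6c over -0.075 to 0.011 and Pde9a over -0.056 to 0.029. Where not stated otherwise, the cause was not tested. No paired analysis was possible because the replicate numbers follow the order of deposition and pair no mice.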

Other observations

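Further marker lists gave mixed counts, to be read beside the 13.2% of all genes called lower and 31.1% called higher. Of 6 round spermatid markers 3 were lower in KO and 1 higher, with a median change of -0.31 (Spaca1 -4.29, Tssk1 -0.68, Acr -0.51). Of 7 spermatogonium markers 1 was lower and 2 higher (Kit 0.47, Gfra1 -0.29, Zbtb16 0.26). Of 5 endothelial markers 2 were higher (Tek 2.05, Cdh5 1.15), whereas Kdr had a change of 0.08 and was not called. Of 5 peritubular cell markers 1 was higher (Myh11 0.21), and Acta2 (0.23) and Tagln (0.10) were not called. Of 4 measured epididymal markers 1 was lower (Rnase10 -0.42), and Lcn9 (-0.12) and Lcn5 (-0.03) were not called. Of 3 red blood cell genes only Alas2 was measured, and it was lower (-0.68).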
